A study of Mus musculus with 6 samples.

Results

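The genes described here encode the machinery that loads, docks, fuses and recovers synaptic vesicles, together with their relatives in the same families that serve other membranes. They were chosen by symbol alone, as members of the Vamp, Stx, Snap, Syt, Syn, Syngr, Sv2, Cplx, Stxbp, Rims, Dnm, Sh3gl, Synj and Vti1 families plus Syp, Napa, Napb, Nsf, Unc13a to Unc13c, Bsn, Pclo and Amph. This gave 50 of the 5538 genes in the table. In the GENCODE M21 annotation of the mouse, 93 protein-coding genes match the same names, and 43 of them have no value here. No value in the table lies under 7 TPM (transcripts scaled to a fixed library total), so the 43 may have been below that level in some library of either group. The names also take in genes that do not act at synapses, such as Synj2bp, a protein of the outer mitochondrial membrane, Dnm1l, which divides mitochondria and peroxisomes, and Stx18 and Stx5a, syntaxins of the endoplasmic reticulum and Golgi.

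Fusion of a vesicle is driven by SNARE proteins. A vesicle SNARE, synaptobrevin (Vamp1 or Vamp2), zips together with syntaxin and SNAP-25 of the plasma membrane, while the active zone proteins prepare the complex, complexin clamps it and synaptotagmin triggers fusion when calcium enters. NSF and its SNAP adaptors then pull the complex apart, and dynamin, endophilin, amphiphysin and synaptojanin take the membrane back. Vamp1, Syt2 and Cplx1 are known as forms that are prominent in the brainstem and spinal cord, where many neurons fire fast, and Vamp2, Syt1 and Cplx2 as the main forms of the forebrain.

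RNA came from the perioculomotor (pIII) region of the midbrain of C57BL/6 mice, and was sequenced in 3 IP and 3 Input libraries, each from pooled tissue of 4 to 5 mice. All mice carried CreER driven by the promoter of Fos, an activity-regulated gene, and a Cre-dependent reporter for eGFP-L10a, a ribosomal protein fused to a fluorescent tag. They were kept awake for 6 hr and then allowed 3 hr of recovery sleep, with the drug 4-OHT, which activates CreER, given just before either phase. The series text speaks of the cells tagged in recovery sleep, while the single libraries are labelled only by IP or Input and a number, and no age is given. Cells enter the tagged group through Fos promoter activity, so they are not defined by a cell type. Antibodies to eGFP pulled down the ribosomes that gave the IP libraries, while the Input libraries are taken as RNA of such tissue before that step. The labels do not say that the pools were separate animals, so the tests measure the spread between these libraries, which may be technical.

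IP 1 and Input 3 stood apart from the other libraries of their groups. The median gene of the table stood at 27.7 TPM in IP 1 and 31.1 in Input 3, against 51.0 to 67.2 in the other 4. All levels below that are called relative are therefore log2(TPM + 1) minus the median gene of the same library, and results are also given for the 4 libraries without IP 1 and Input 3. Rpl10a, the gene of the tagged protein, stood at 559, 365 and 439 TPM in IP 1, 2 and 3. Its Input 1, 2 and 3 values were 117, 61.8 and 36.2, so every IP library lay above every Input library. The similarly named entry Rpl10a-ps1 did not separate the groups. Its Input 3 value, 417 TPM, exceeded the 390 of IP 3, while IP 1 reached 551 and IP 2 reached 526. Input 1 held 97.3 TPM of Rpl10a-ps1 and Input 2 held 90.0, so Input 3 was unlike them for this entry. Of 10 neuron markers, all had a value, and their summed level was 3846 to 7441 TPM in IP versus 3169 to 6333 in Input. Much of this sum was Nefl, with 1514, 3316 and 2414 TPM in IP 1, 2 and 3 and 889, 1445 and 1242 in Input 1, 2 and 3. In relative level, the median IP minus Input difference of the 10 was 0.18 over 6 libraries and -0.01 without IP 1 and Input 3. Read depth is unknown, since TPM does not keep it.

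The 50 genes together took 0.713%, 1.54% and 1.37% of the listed TPM in IP 1, 2 and 3, and 1.72%, 1.73% and 0.945% in Input 1, 2 and 3. The median member stood 0.40, 0.54 and 0.59 log2 units above the median gene of its library in IP 1, 2 and 3, and 0.87, 0.76 and 0.75 above it in Input 1, 2 and 3. These library medians were lower in all 3 IP libraries than in any Input library. In TPM, IP 1 was the lowest of the IP libraries for 47 of the 50 genes and Input 3 the lowest of the Inputs for 45. After the median gene was subtracted these counts were 30 and 26.

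**Figure D1:**
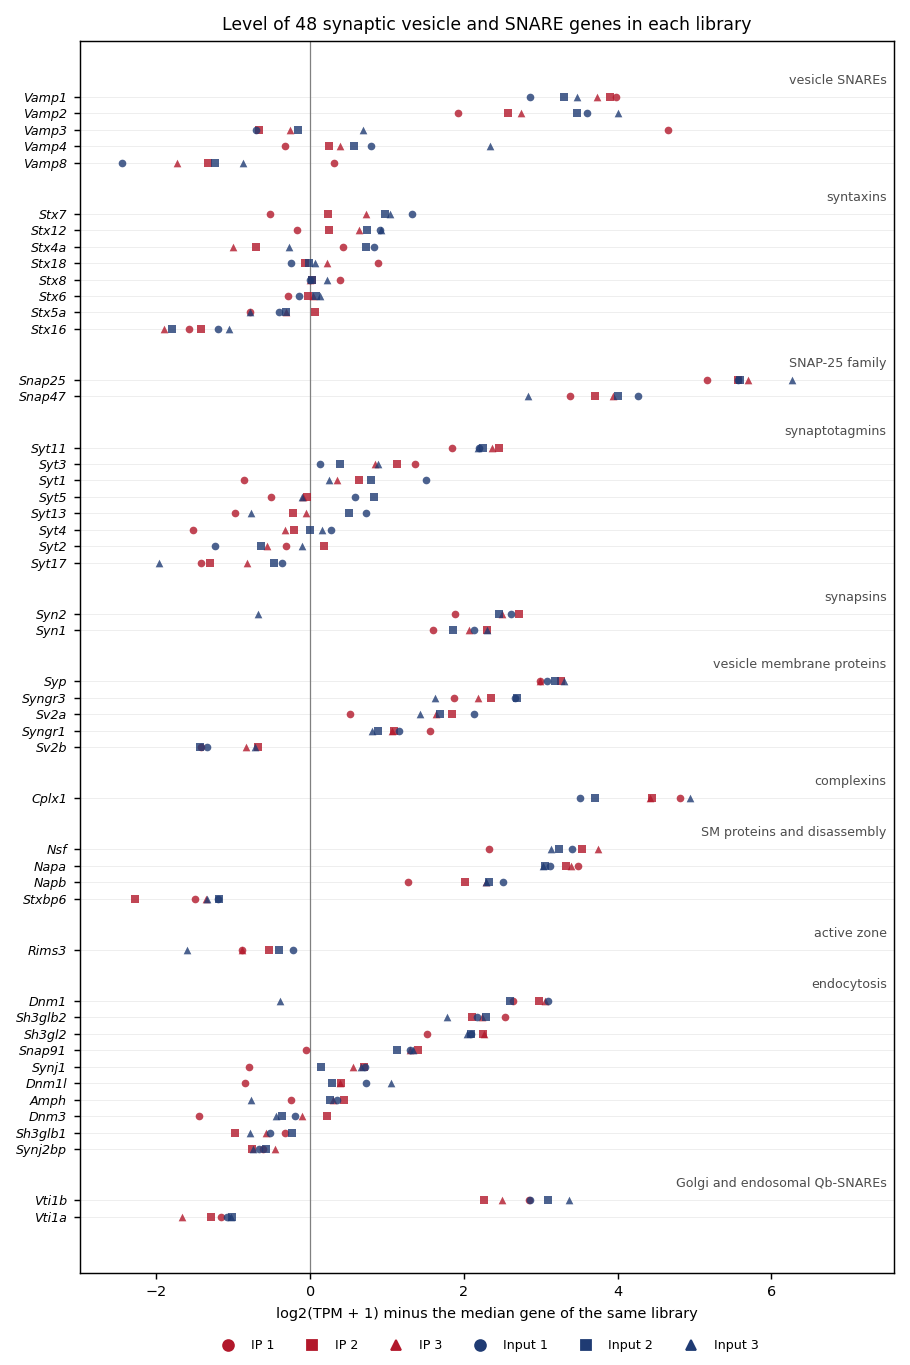
Relative level (log2(TPM + 1) minus the median gene of the library, horizontal axis) of 48 of the 50 genes, ordered by role, in IP 1 to 3 (red) and Input 1 to 3 (dark blue), with 1 point per library. Snap25 is highest in every library, Vamp2 has all red points to the left of all blue points, and the single far point of Vamp3 is IP 1.

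In the comparison of IP with Input, which asks which transcripts are enriched on tagged ribosomes, Vamp2, the main synaptobrevin of the forebrain, had the lowest difference of the 50, at -1.28 log2 units relative to the median gene (SE 0.34), or 0.412 times. Its close relative Vamp1 stood at 0.66 (SE 0.30), or 1.58 times. None of the 50 passed the test in either direction, nor did any of the 5538 genes (0% higher and 0% lower; limma, adjusted p under 0.05, smallest adjusted p 0.649). At an unadjusted p under 0.05, limma had 0 members higher, where 3.58% of all genes were, and 2 lower, Vamp2 and Stx7, where 3.85% of all genes were. The differences of the 50 ran from -1.28 to 1.30, with SEs of 0.21 to 1.31 and a median of -0.11, against 0.02 for all genes. The difference was negative for 31 members (62%), and for 48.2% of all genes. Values said below to lie at a number are such relative differences in log2 units. In bulk RNA, fewer cells of a type and less RNA per cell cannot be told apart.

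Relative to the median gene, the 3 IP libraries exceeded all 3 Input libraries for 2 members, Vamp1 and Napa, and lay below all of them for 8: Vamp2, Vamp4, Stx7, Stx12, Syt4, Vti1a, Vti1b and Stxbp6. As shares of the 50 these are 4% and 16%. Over all genes the shares were 6.93% higher and 9.71% lower. On TPM without subtraction of the median gene, 0 members lay apart in the higher direction and 3 in the lower, Vamp2, Vamp4 and Vti1b.

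Among the 4 libraries without IP 1 and Input 3, limma called 1 member higher, Cplx1, and 3 lower, Vamp2, Stx4a and Syt5. These are 2% and 6% of the members, where 3.38% of all genes were called higher and 2.89% lower. Of these 4 genes, Vamp2 alone also had groups that did not overlap over all 6 libraries. The median of the members' differences there was 0.01, against -0.04 for all genes, while the library medians given above were lower in IP 2 and 3 than in Input 1 and 2. The Inputs of this fit are those without the very high values that Input 3 shared with IP, such as those of Gm26809 and Apobec3.

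**Figure D2:**
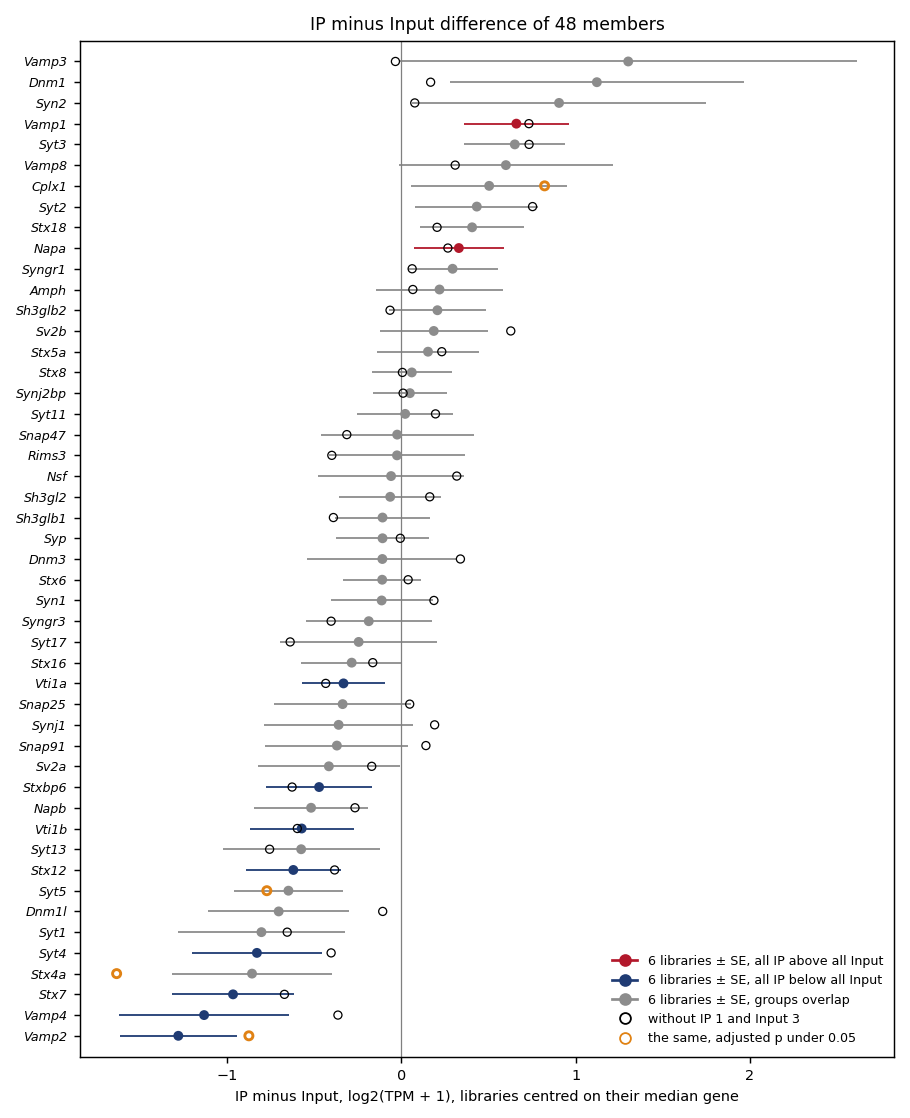
IP minus Input difference of 48 of the 50 genes on the centred log2 scale (filled points, bars are the SE of the limma fit over 6 libraries; red or blue where the groups do not overlap), and the same difference without IP 1 and Input 3 (open circles, orange where the adjusted p is under 0.05). Most genes lie within 0.5 of 0, Vamp2 is at the bottom, and the widest bars belong to Vamp3, Dnm1 and Syn2.

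The vesicle SNAREs spanned the whole range of the members' differences. Vamp2 (chromosome 11, 69088490 to 69092384 on mm10) had 107, 340 and 348 TPM in IP 1, 2 and 3 and 790, 753 and 515 in Input 1, 2 and 3. Every IP library lay below every Input library, with or without subtraction of the median gene. Without IP 1 and Input 3 the relative difference was -0.88 (SE 0.18, limma adjusted p = 0.0281), and with each library left out in turn it stayed between -1.45 and -1.03. Vamp1 (chromosome 6, 125215551 to 125245964) had 452, 857 and 688 TPM in IP versus 475, 670 and 353 in Input. Its groups overlapped in TPM, where IP 1 lay below Input 1 and Input 2, and did not overlap relative to the median gene. The difference without IP 1 and Input 3 was 0.73 (SE 0.21) and the limma adjusted p 0.0721, and under quantile normalization over 6 libraries it was 0.39 and the groups overlapped.

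The balance of this pair was inverted between the groups. Vamp1 made up 80.8%, 71.6% and 66.4% of the summed TPM of the pair in IP 1, 2 and 3, and 37.5%, 47.1% and 40.7% in Input 1, 2 and 3. Vamp1 exceeded Vamp2 in every IP library and was below it in every Input library. This ratio is taken within a library, so subtraction of the median gene does not bear on it. The log2 difference of Vamp1 and Vamp2 averaged 1.46 ± 0.55 in IP versus -0.48 ± 0.29 in Input (SD, n = 3 each), 1.94 apart, and 1.61 apart without IP 1 and Input 3. The exact two-sided permutation test over the 6 libraries gave p = 0.1, the smallest that 3 against 3 allows, and 0.3 after adjustment over the 6 pairs that were compared.

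Because the paralogs are alike, their coding sequences are shown where Vamp1 and Vamp2 resemble each other most, in a stretch that lies mostly within the SNARE motif, as GENCODE M21 transcripts give it. The stretch is 120 bases, at bases 85 to 204 of the Vamp1 coding sequence, 79 to 198 of Vamp2 and 40 to 159 of Vamp3, 5′ to 3′, with capitals for bases that differ from Vamp2.
Vamp1: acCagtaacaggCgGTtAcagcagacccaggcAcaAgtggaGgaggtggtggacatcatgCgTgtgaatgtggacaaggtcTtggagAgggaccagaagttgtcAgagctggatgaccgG
Vamp2: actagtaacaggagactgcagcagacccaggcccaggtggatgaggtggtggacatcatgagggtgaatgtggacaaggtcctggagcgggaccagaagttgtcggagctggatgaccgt
Vamp3: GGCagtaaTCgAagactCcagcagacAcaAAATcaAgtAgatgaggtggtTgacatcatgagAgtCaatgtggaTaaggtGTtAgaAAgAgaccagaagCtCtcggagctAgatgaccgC
Vamp1 differs from Vamp2 at 14 of these bases and Vamp3 at 28. Over the whole coding sequence Vamp1 and Vamp2 are 77.2% identical, and the longest run of bases that their principal transcripts share is 18. A longer read that matches the principal transcript of Vamp1 exactly therefore cannot match that of Vamp2 exactly. Read length was not given in the sources used here.

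Vamp3, cellubrevin, which serves recycling endosomes in most cells, had 723 TPM in IP 1 and 35.2 and 42.5 in IP 2 and 3, against 39.0, 60.3 and 50.5 in Input. Its difference of 1.30 (SE 1.31) rested on IP 1, and without IP 1 it was -0.41. Vamp4, a SNARE of the trans-Golgi network, had 21.8, 67.4 and 67.1 TPM in IP versus 113, 100 and 161 in Input, a relative difference of -1.13 (SE 0.49). Every IP library lay below every Input library for Vamp4, with Input 3 the highest, and the difference was -0.58 without Input 3 and -0.36 without IP 1 and Input 3. Vamp8, an endosomal SNARE, had 14.6 to 34.5 TPM in IP and 11.02 to 27.8 in Input, and lay above the median gene only in IP 1. Its relative difference was 0.60 (SE 0.615), with overlapping groups.

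Of the plasma membrane partners, Snap25 was the most abundant of the 50 genes in every library. It had 1023, 2729 and 2679 TPM in IP versus 3090, 3298 and 2466 in Input, and its relative difference was -0.34 (SE 0.39). The groups overlapped in TPM and in relative level, and without IP 1 and Input 3 the difference was 0.05. Snap47, a relative of SNAP-25 without its membrane anchor, had 298, 752 and 793 TPM in IP versus 1255, 1094 and 227 in Input, with Input 3 below every IP library. Neither gene shared the separation seen for Vamp2.

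Most of the measured syntaxins serve endosomes, the Golgi and the cell surface. Stx7 and Stx12, which act in endosomes, had every relative IP value below every relative Input value. Stx7 had 19.0, 66.7 and 85.1 TPM in IP versus 163, 133 and 64.7 in Input, a difference of -0.97 (SE 0.35) that was -0.63 without IP 1, and Stx12 had 24.5, 67.4 and 79.5 against 122, 112 and 59.8, a difference of -0.62 (SE 0.27). Stx4a (chromosome 7, 127824294 to 127849019), a syntaxin of the surface of many cell types, had 37.4, 34.2 and 24.9 TPM in IP versus 115, 112 and 25.5 in Input. It passed in the 4 libraries without IP 1 and Input 3 (-1.63, SE 0.20, limma adjusted p = 0.00341), while the Input 3 value lay among the IP values. Stx5a, Stx6, Stx8, Stx16 and Stx18 lay between -0.29 and 0.41, and over the 9 measured syntaxins 5 differences were negative and 4 positive, with a median of -0.11.

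Synaptotagmins, the calcium sensors and their relatives, divided. Syt1, the fast sensor of the forebrain, had 14.8, 88.2 and 65.0 TPM in IP versus 184, 116 and 36.8 in Input, a relative difference of -0.80 (SE 0.48) with overlapping groups, and -0.35 without IP 1 or -0.47 without Input 1. Syt2, the fast sensor of the brainstem, had 22.1, 63.9 and 34.3 TPM in IP versus 26.7, 42.5 and 28.9 in Input, a difference of 0.43 (SE 0.35), also with overlap, and 0.14 without Input 1. The share of Syt1 in the pair was 40.1%, 58.0% and 65.4% in IP and 87.4%, 73.2% and 56.1% in Input, so the groups overlapped (exact permutation p = 0.3, adjusted 0.45).

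Syt3, a high-affinity sensor, had 73.1, 125 and 92.0 TPM in IP versus 70.1, 87.8 and 58.1 in Input (0.65, SE 0.29). Its lowest relative IP value, in IP 3, was just under that of Input 3. Syt4, which sits on dense-core vesicles and lacks normal calcium binding, had 8.94, 48.7 and 40.3 TPM in IP versus 77.6, 67.0 and 34.7 in Input (-0.83, SE 0.37). Its relative values did not overlap, though without IP 1 the difference was -0.41. Syt5, which is found on dense-core vesicles, had 19.1, 55.1 and 47.9 TPM in IP versus 97.2, 120 and 28.6 in Input. It passed narrowly without IP 1 and Input 3 (-0.77, SE 0.19, limma adjusted p = 0.0499), and Input 3 lay below 2 of the 3 IP values in TPM. Syt11, which does not bind calcium, was the most abundant of the 8 measured synaptotagmins, with 102, 316 and 267 TPM in IP versus 297, 322 and 144 in Input. It lay at 0.02 (SE 0.27), while Syt13 and Syt17 lay at -0.58 and -0.25. Of the 8 differences 5 were negative, and the median was -0.41.

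Among the proteins that sit on the vesicle or tie it to its cluster, Syp and Syn1 had differences near 0. Syp, synaptophysin, a standard marker of synaptic vesicles, had 227, 552 and 411 TPM in IP versus 550, 621 and 315 in Input, a relative difference of -0.11 (SE 0.27) and -0.01 without IP 1 and Input 3. Syn1, which tethers vesicles to actin, had 85.5, 281 and 216 TPM in IP versus 284, 246 and 158 in Input (-0.11, SE 0.29). Both had overlapping groups.

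Syn2 had 105, 378 and 293 TPM in IP versus 398, 373 and 19.0 in Input. Its difference of 0.91 (SE 0.84) rested on Input 3, and without Input 3 it was -0.17. Dnm1, the dynamin that pinches off recovered vesicles, had the same shape, with 177, 451 and 431 TPM in IP versus 558, 411 and 23.3 in Input (1.12, SE 0.85, and 0.17 without IP 1 and Input 3). Sv2a and Sv2b, glycoproteins of the vesicle membrane, lay at -0.42 and 0.19, and Syngr1 and Syngr3, the synaptogyrins, at 0.29 and -0.19, all with overlapping groups. Their balance overlapped between the groups as well, with exact permutation p = 1 for Syn1 and Syn2, 0.3 for Sv2a and Sv2b and 0.4 for Syngr1 and Syngr3. Sv2a had 39.9, 205 and 161 TPM in IP versus 284, 219 and 84.9 in Input, and its difference was -0.01 without IP 1. Syngr3 had 104, 292 and 236 TPM against 411, 437 and 98.0.

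Cplx1 was the only complexin with a value and the second most abundant member in all IP libraries and in Input 3. It had 805, 1250 and 1113 TPM in IP versus 744, 891 and 986 in Input. The relative difference was 0.50 (SE 0.45) over 6 libraries, 0.23 to 0.95 with an Input library left out, and 0.82 (SE 0.18, limma adjusted p = 0.0332) without IP 1 and Input 3. In relative terms Input 3, at 4.94, was the highest of all 6, above the IP values of 4.42 to 4.81, so the groups overlapped.

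The SM proteins and the machine that takes SNARE complexes apart held another pair. Napa, alpha-SNAP, had 319, 574 and 545 TPM in IP versus 569, 566 and 260 in Input, and its relative values were higher in every IP library (0.33, SE 0.26). Napb, beta-SNAP, the brain form, had 67.9, 230 and 253 TPM in IP versus 370, 340 and 156 in Input (-0.52, SE 0.33). Napa made up 82.4%, 71.4% and 68.3% of the pair in IP and 60.6%, 62.5% and 62.6% in Input, so the groups did not overlap and the spread among the Inputs was small. The log2 difference was 1.54 ± 0.59 in IP versus 0.70 ± 0.07 in Input (SD, n = 3 each; exact permutation p = 0.1, adjusted 0.3), and 0.53 apart without IP 1 and Input 3.

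The 2 genes are 76.0% identical over their coding sequence, with a longest shared run of 26 bases between principal transcripts. They are shown at bases 439 to 558 of both coding sequences, where they are most alike, with capitals for the 12 of 120 bases that differ from Napb.
Napa: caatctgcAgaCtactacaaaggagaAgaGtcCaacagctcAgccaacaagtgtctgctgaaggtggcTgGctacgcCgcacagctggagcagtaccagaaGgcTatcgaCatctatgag
Napb: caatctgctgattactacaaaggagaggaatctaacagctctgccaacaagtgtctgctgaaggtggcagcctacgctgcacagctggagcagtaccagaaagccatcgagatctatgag
Nsf, the ATPase that works with both, had 143, 667 and 697 TPM in IP versus 692, 644 and 281 in Input. Its difference was -0.06 (SE 0.42) over 6 libraries and 0.32 without IP 1 and Input 3. Stxbp6, a SNARE-binding protein known as amisyn, was near the floor of the table, with 9.16 to 19.3 TPM in IP and 11.7 to 28.9 in Input, and its groups nearly touched, with -1.36 as the highest relative IP value and -1.34 as the lowest Input value.

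**Figure D3:**
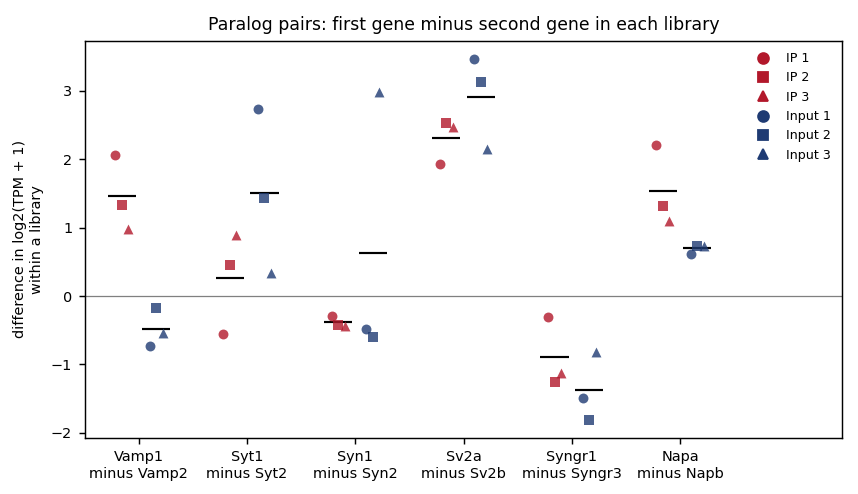
Difference in log2(TPM + 1) between the first and the second gene of 6 paralog pairs within each library (vertical axis). Red marks IP, dark blue marks Input and black bars mark the group means. For Vamp1 minus Vamp2 and Napa minus Napb the red points all lie above the blue ones, for the other 4 pairs they overlap, and the far blue point of Syn1 minus Syn2 is Input 3.

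Of the active zone proteins only Rims3, a short form related to RIM, had a value, at 14.5, 38.8 and 27.0 TPM in IP versus 55.1, 50.4 and 9.51 in Input. Bsn, Pclo, Rims1, Rims2, Unc13a and 3 others of this role have no value here. Among the genes grouped by name under vesicle recovery, Sh3gl2, endophilin A1, had 81.6, 271 and 249 TPM in IP versus 277, 289 and 131 in Input (-0.06, SE 0.29). Sh3glb2, an endophilin B, had 165, 246 and 243 TPM in IP versus 293, 333 and 109 in Input (0.21, SE 0.28). Both overlapped between the groups, and in TPM IP 1 and Input 3 were the lowest of each, while in relative level IP 1 was the highest library for Sh3glb2. Amph, Dnm3, Synj1 and Snap91, a clathrin adaptor, lay between -0.37 and 0.22. The 10 measured genes grouped under this role had a median of -0.09, with none apart between the groups. They include Dnm1l, Sh3glb1 and Synj2bp, which serve other membranes and lay at -0.70, -0.11 and 0.05.

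Vti1a and Vti1b are SNAREs of the Golgi and endosomes. Vti1b had 205, 275 and 292 TPM in IP versus 472, 583 and 330 in Input (-0.57, SE 0.30), and was lower in every IP library in TPM as well as in relative level, where IP 1 and Input 1 nearly touched. Vti1a had 11.9, 22.5 and 15.3 TPM in IP versus 29.9, 32.8 and 14.8 in Input (-0.33, SE 0.24), and was lower in every IP library only in relative values.

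**Figure D4:**
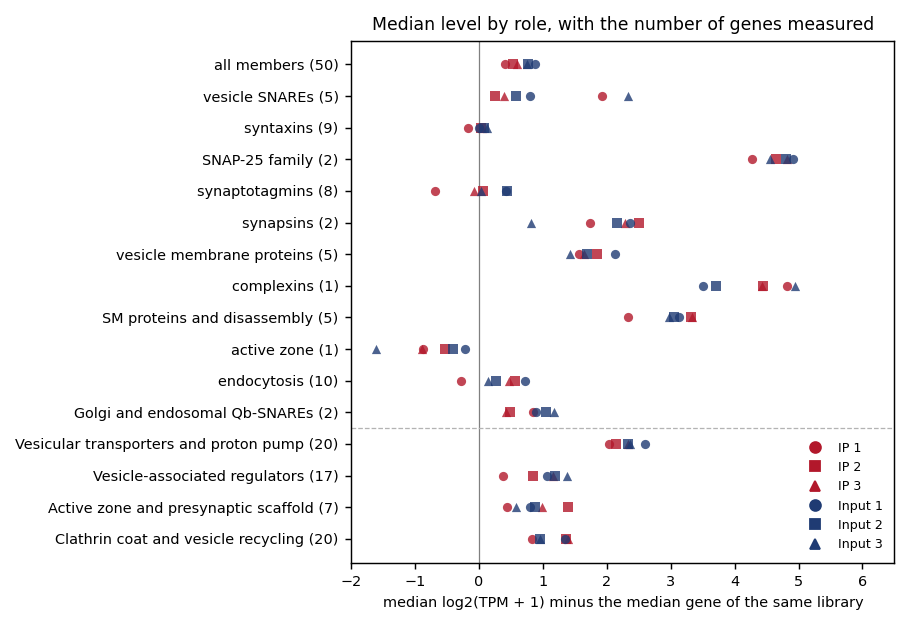
Median relative level of each role and of 4 lists of other vesicle genes (below the dashed line), 1 point per library, red for IP and dark blue for Input. The number of genes measured is in brackets. The medians of all 50 members are 0.40 to 0.59 in IP and 0.75 to 0.87 in Input, and the points of most roles overlap between the groups.

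Other genes of the vesicle cycle gave a similar spread. Of 93 listed, 64 had a value, none passed the test over 6 libraries, 3 had every relative IP value above every Input value and 10 below (6.93% and 9.71% of all genes did), and the median was -0.06. The subgroup medians were -0.10 for vesicular transporters and the proton pump (20 measured), -0.09 for vesicle-associated regulators (17), 0.19 for active zone and scaffold genes (7) and 0.12 for the clathrin coat and recycling (20). The genes named here and in the next paragraph were taken from the 3 with the smallest limma p over 6 libraries in each subgroup. They are therefore not typical of the 64. Snapin, which binds SNAP-25, had 32.2, 74.1 and 63.5 TPM in IP versus 136, 155 and 82.2 in Input (-0.91, SE 0.22). It passed without IP 1 and Input 3 (limma adjusted p = 0.0421). Rph3a, rabphilin, a partner of the vesicle GTPase Rab3, lay at 0.73 (SE 0.23), with 36.2, 85.8 and 76.9 TPM in IP versus 63.3, 58.2 and 23.1 in Input. Relative to the median gene, Snapin was lower in every IP library and Rph3a higher.

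The vesicular transporters for acetylcholine and monoamines lay at opposite ends. Slc18a3, which loads acetylcholine, had 164, 215 and 132 TPM in IP versus 43.1, 69.3 and 176 in Input (1.28, SE 0.76), and passed without IP 1 and Input 3 (1.90, limma adjusted p = 0.00563). Slc18a2, which loads monoamines, lay at -1.25 (SE 0.64). Both had overlapping groups over 6 libraries, Input 3 being the highest Input for Slc18a3 and the lowest for Slc18a2. Gap43, a growth cone and presynaptic protein, lay at -1.24 (SE 0.41) and passed without IP 1 and Input 3 (limma adjusted p = 0.0107). Apba2, a presynaptic scaffold also called Mint2, was higher in every IP library (0.62, SE 0.23), and Atp6v1c1, a subunit of the proton pump, Eps15, an endocytic adaptor, and Necap1, a clathrin-coat protein, were lower in every one (-0.56, -0.90 and -0.46), all relative to the median gene. Ppfia4, a liprin, and Pacsin1, a dynamin partner, lay at 0.61 and 0.59 with overlapping groups.

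**Figure D5:**
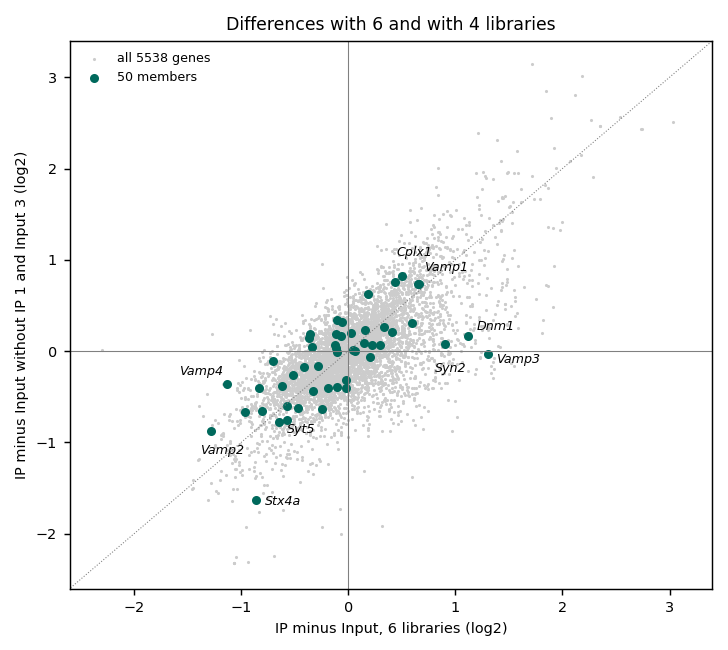
IP minus Input difference over 6 libraries (horizontal axis, log2) against the same difference without IP 1 and Input 3 (vertical axis, log2), for all genes (grey, 17 genes outside the axes) and the 50 members (green), with the dotted line marking equality. Vamp2 and Vamp1 keep their sides, while Vamp3, Dnm1 and Syn2 lie to the right on the horizontal axis and near 0 on the vertical axis.

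Markers of the cells that this tissue could hold differed between the libraries as well. All 5 cholinergic markers, Chat, Slc18a3, Slc5a7, Isl1 and Prph, had values, and summed to 412 to 643 TPM in IP versus 186 to 326 in Input. The 3 measured dopaminergic markers summed to 67.3 to 438 TPM in IP versus 108 to 1326 in Input, and the 2 serotonergic ones to 157 to 953 against 136 to 2292. Of 12 oligodendrocyte markers 8 had a value, summing to 478 to 5029 TPM in IP versus 672 to 6575 in Input. Their relative differences were negative for 6 and positive for 2, with a median of -0.61, while Mbp, a large part of the sum, lay at 0.225. Of 14 astrocyte markers 10 had a value, summing to 2370 to 3775 TPM in IP against 1274 to 7929 in Input. Here 7 differences were negative and 3 positive, with a median of -0.275. Of 4 oligodendrocyte precursor markers 0 had a value, and of 8 microglial markers 2 did, summing to 21.4 to 38.6 TPM in IP and 33.2 to 85.5 in Input. The 2 measured endothelial and mural markers of 9 summed to 334 to 979 against 446 to 760 TPM, the 2 blood markers of 4 to 48.4 to 234 against 19.4 to 932, the 2 GABAergic ones of 3 to 29.3 to 305 against 169 to 329, and the 1 glutamatergic of 3 to 8.7 to 65.3 against 24.6 to 58.2. Without IP 1 and Input 3, limma called all 5 cholinergic, 1 of 10 neuron and 1 of 2 endothelial and mural markers higher, where 3.38% of all genes were. It called 5 of 10 astrocyte, 3 of 8 oligodendrocyte, 1 of 3 dopaminergic and 1 of 2 serotonergic markers lower, where 2.89% of all genes were. The sums of these lists overlapped between the groups apart from the cholinergic one, and their part in the differences of Vamp1, Vamp2, Napa and the endosomal syntaxins was not tested.

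Exons of some members overlap those of other genes, and no source used here says whether reads were counted by strand. The shared part was 17.7% of the exon bases of Vti1b (with Arg2), 16.8% of Syp (with the antisense gene Gm14703), 14.5% of Syt4 (with Gm26658), 19.8% of Stx18 (with Gm42858, and 12.5% with Nsg1) and 11.6% of Snap47 (with Jmjd4). Vamp1, Vamp2, Napa and Napb have no such overlap.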

How the data were processed

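The authors deposited TPM for 5538 genes in 6 libraries, per the file headers. RSEM, DESeq and the build mm10 are named, without versions or roles, in the submitters' processing notes, and the aligner was not given in the sources used here. TPM corrects for transcript length and keeps no read depth, and every listed value is at least 7, so levels of genes can be compared but counting error cannot be given.

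TPM were transformed to log2(TPM + 1) and the median gene of each library was subtracted. This scale understates changes of low genes. A minimum mean of 1 TPM left out 0 genes. IP and Input were compared per gene by limma 3.58.1 in R 4.3.3 (lmFit and eBayes with a variance trend, group as the only term), with Benjamini-Hochberg adjustment across the whole table and 0.05 as threshold. The script was tested on simulated data with a smaller spread than that of these 6 libraries, so the test does not show what the fit can detect here. Differences without IP 1 and Input 3 come from 2 libraries a group. Paralog pairs were compared by an exact permutation test over the 6 libraries, and 6 of 11 listed pairs had both values. Positions and sequences come from GENCODE M21 (mm10).

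The members, lists, pairs and the doubt about IP 1 and Input 3 were chosen with earlier results of these data known. Values in every library are given for the 3 most abundant members of each role, members called in either fit, the 6 largest differences without overlap, and 15 standard genes, of which Stx1a and Cplx2 have no value. Some genes that this rule names are not reported here singly and enter only counts, medians and unnamed points. Alternatives were no centring, quantile normalization, a pseudocount of 0.1, a minimum of 20 TPM, no minimum, each library left out, IP 1 and Input 3 left out, and the replicate number as a block.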

Additional observations from a re-analysis of the deposited data

How the results depend on the processing

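Over 6 libraries limma called 0 genes in either direction, and also without centring, under quantile normalization, with the other pseudocount and minimums, and with the replicate block. Leaving out each library in turn gave 0 to 16 genes higher and 0 to 1 lower, the calls coming without Input 3, and 0 members. Without IP 1 and Input 3 together there were 187 higher and 160 lower, of which 1 and 3 were members. That setting also gave Cplx1 0.82, Stx4a -1.63, Syt5 -0.77 and Vamp2 -0.88. The cause was not tested, and the Inputs of that setting lack the very high values that Input 3 shared with IP. Members with non-overlapping groups numbered 2 higher and 8 lower, 0 and 3 without centring (which moved the median of all genes to -0.23), 0 and 10 under quantile normalization, 2 to 6 and 9 to 17 with 1 library left out, and 11 and 18 without IP 1 and Input 3, where fewer libraries make separation easier. The shares of all genes in these settings were 1.7% and 6.21%, 6.32% and 11.1%, 9.1% to 18.1% and 12.5% to 20.2%, and 25.2% and 31.5%. The median of the members was -0.35 without centring, 0.008 without IP 1 and Input 3, and -0.18 to 0.013 with 1 library left out. Some uncalled differences turned sign, and not only those near 0, since Vamp3 and Syn2 stood at 1.30 and 0.91 over 6 libraries. Without centring, Sh3glb2 was -0.038 and Syt11 -0.22, and under quantile normalization Syt11 was -0.009. Without IP 1 and Input 3, Nsf was 0.32, Sh3gl2 0.16, Sh3glb2 -0.065, Snap25 0.048, Syn1 0.19 and Vamp3 -0.034. With 1 library left out the ranges were -0.33 to 0.38 for Nsf, -0.46 to 0.24 for Rims3, -0.19 to 0.18 for Sh3gl2, -0.46 to 0.26 for Snap47, -0.27 to 0.082 for Syn1, -0.17 to 1.48 for Syn2, -0.10 to 0.21 for Syt11 and -0.41 to 2.26 for Vamp3.

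Same-numbered IP and Input libraries correlated in their deviations from the group means at -0.10, 0.25 and -0.17 across genes, and 2 of 6 libraries correlated best with their own number, so the numbers are not taken to pair the samples. With the replicate number as a block limma called 0 genes in either direction.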

Other observations

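The exon length of a member and its IP minus Input difference had a Spearman rho of 0.08 across the 50 genes, against -0.05 across the 5534 genes of the table found in the annotation. Genes share libraries and are not independent.

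RefSeq promoters (GRCm38.p6, 250 bases before to 50 after the start) were found for 40 of the 50 members, as 53 entries. The GC box GGGCGG, on either strand, was in 64.2% of them, in 63.6% of the promoters of all genes of the table and in 35.7% of all promoters of the same length. The cAMP response element TGACGTCA, which reads the same on both strands, was in 3 of the 53, those of Napa, Sh3gl2 and Syn1. It was in 3.8% of the promoters of genes of the table.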
